A study of Homo sapiens with 6 samples.

Results

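The 10 named genes for enzymes that cross-link or modify the extracellular matrix were followed in a human breast cancer cell line in which HSF1, a heat shock transcription factor, was knocked down by shRNA, and in its control.
They are the 5 lysyl oxidases LOX, LOXL1, LOXL2, LOXL3 and LOXL4, the transglutaminase TGM2, the lysyl hydroxylases PLOD1 and PLOD2, and P4HA1 and P4HA2, the catalytic subunits of collagen prolyl 4-hydroxylase.
All 10 genes were found by symbol among 28058 genes of the deposited table. They were picked by name when the differences between the groups in these same libraries were already known. Calls and p-values of these genes therefore describe the libraries and are not independent evidence.
The samples were 3 libraries of MDA-MB-231 cells expressing an shRNA directed against HSF1 (shHSF1) and 3 of the same cells expressing a control shRNA (shCTL). MDA-MB-231 is an established line from a breast adenocarcinoma, and per the labels' protocols all cells were grown at 21% O2 and 5% CO2 in DMEM with 10% serum.
The labels do not say how many hairpins were used or whether replicates were separate cultures, so each p-value reflects the variation among these 6 libraries, which may be technical.

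Collagen chains are modified in the endoplasmic reticulum before they leave the cell. Prolyl 4-hydroxylases hydroxylate prolines, which stabilizes the triple helix, and lysyl hydroxylases hydroxylate lysines that later take part in cross-links. Outside the cell, the copper-dependent lysyl oxidases oxidize lysines of collagen and elastin so that fibres become covalently cross-linked. Transglutaminase 2 joins glutamine and lysine side chains of matrix proteins, and it also works inside cells. Several of these genes, LOX, PLOD2 and P4HA1 among them, are known to be induced by hypoxia-inducible factors.

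HSF1 stood at 5.01, 4.70 and 3.84 RPKM in the shHSF1 libraries, against 61.2, 53.3 and 47.9 RPKM in the shCTL libraries, which fits the labels (log2 fold change -3.44, SE 0.12, limma adjusted p = 3.78e-06; exact two-sided permutation p = 0.1, the smallest that 3 against 3 libraries allow).
RPKM scales the reads of a gene by its length in kb and by the library's total of assigned reads. Totals of assigned reads ranged from 33988307 to 42615678 in shHSF1 and from 36737836 to 70449758 in shCTL, and 3 reads of a 1 kb gene equal 0.0426 to 0.0883 RPKM, for counting error only.
Of 4 markers of mesenchymal-like breast cancer lines, CD44 (153 RPKM in shHSF1 and 104 RPKM in shCTL) and CAV1 (146 RPKM in shHSF1 and 106 RPKM in shCTL) rose, while VIM (2076 RPKM in shHSF1 and 1903 RPKM in shCTL) and AXL were not called. Of 5 epithelial markers EPCAM rose to 8.26 RPKM in shHSF1, against 4.62 RPKM in shCTL, KRT18 fell to 204 RPKM in shHSF1, against 282 RPKM in shCTL, KRT8 and KRT19 were not called, and CDH1, the epithelial cadherin, was at 0.028 RPKM in shHSF1 and 0.023 RPKM in shCTL, although the labels call the cells epithelial. The 7 fibroblast markers summed to 0.314 to 0.316 RPKM in shHSF1 and 0.117 to 0.267 RPKM in shCTL, with THY1 and LUM listed at 0. Of 5 leukocyte markers CD68 was high, at 94.0 RPKM in shHSF1 and 77.5 RPKM in shCTL, while PTPRC was at 0.0141 RPKM in shHSF1 and 0.025 RPKM in shCTL. Of 4 endothelial markers KDR fell to 2.70 RPKM in shHSF1, against 10.8 RPKM in shCTL, and the other three had means under 0.25 RPKM in both groups. The part of these markers in the members' changes was not tested. In such bulk RNA, fewer cells of a kind and less RNA per cell cannot be told apart.

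The enzymes did not move as one. All 10 passed the filter on low values (at least 0.5 RPKM in at least 3 libraries) that left 12433 genes for the limma test. Of the members, 5 rose in shHSF1 (TGM2, LOXL1, LOXL2, P4HA2 and PLOD1), 2 fell (LOXL4 and LOX), and 3 did not pass the adjusted p threshold of 0.05 (LOXL3, PLOD2 and P4HA1). Among all tested genes 33.8% were called, 17.7% higher and 16.1% lower. The values of the groups did not overlap for 7 of the 10 members, against 47.4% of all tested genes. A called change of at least 1 on the log2 scale was seen for 2 members, TGM2 and LOXL4, and for 4.89% of all tested genes. Since the genes were picked with this contrast in view, nothing is read from these shares. The median log2 fold change was 0.28 over the members and 0.04 over all tested genes. A log2 fold change is shHSF1 over shCTL on the log2(RPKM + 0.5) scale, which understates changes of low genes. LOXL1, at 0.96 on that scale, passed 1 with 0.1 in place of 0.5 (1.14) but not with 1 in its place (0.81).

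**Figure D1:**
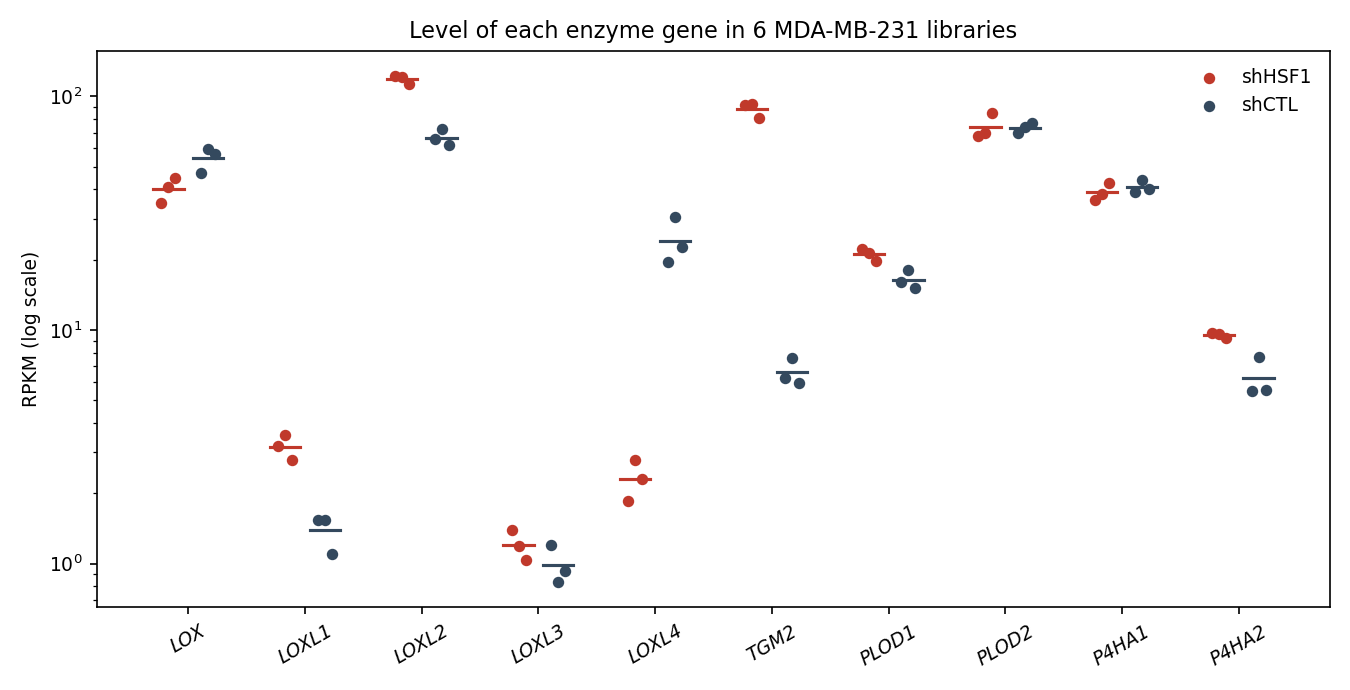
RPKM of each of the 10 enzyme genes on a log axis, with 1 point per library and a bar at the group mean. TGM2 at 80.8 to 93.1 RPKM in shHSF1 lies far above 5.93 to 7.60 RPKM in shCTL, LOXL4 shows the opposite order, and the PLOD2, P4HA1 and LOXL3 points of the groups overlap.

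TGM2 (chromosome 20, 38127387 to 38166578, minus strand, 14 exons after merging), which encodes transglutaminase 2, showed the largest change of the members. Its level was 92.0, 93.1 and 80.8 RPKM in shHSF1 replicates 1 to 3, against 6.25, 7.60 and 5.93 RPKM in the shCTL libraries. Every shHSF1 library was thus far above every shCTL library. The means were 88.6 ± 6.79 RPKM in shHSF1 and 6.59 ± 0.882 RPKM in shCTL (SD, n = 3 each), a ratio of 13.4, from 55813 reads in the shHSF1 group and 5193 in the shCTL group. On the log2 scale it rose by 3.66 (SE 0.11, limma adjusted p = 1.28e-06), the rank 6 rise among the tested genes. By mean RPKM, TGM2 stood at percentile 94.6 of the tested genes in shHSF1 and at percentile 42.7 in shCTL. No other gene of the table overlaps it.

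LOXL4 (chromosome 10, 98247686 to 98268250, minus strand), a lysyl oxidase with scavenger-receptor domains, fell the most of the members. It was at 1.85, 2.78 and 2.30 RPKM in the shHSF1 libraries, against 19.5, 30.4 and 22.6 RPKM in the shCTL libraries. The groups were far apart, and in both of them replicate 2 was the highest and replicate 1 the lowest. Means were 2.31 ± 0.468 RPKM in shHSF1 and 24.1 ± 5.59 RPKM in shCTL (SD, n = 3 each), with 968 reads in the shHSF1 group and 12397 in the shCTL group, and the shCTL mean was 10.5 times the shHSF1 mean. The log2 fold change of -3.12 (SE 0.18, limma adjusted p = 3.35e-05) was the rank 17 fall among the tested genes. By mean RPKM, LOXL4 stood at percentile 21.2 of the tested genes in shHSF1 and at percentile 76.2 in shCTL.

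Promoter sequence was at hand in RefSeq (GRCh38.p14) for 8 of the 10 members. A pair is shown because their genes moved in opposite directions: that of LOXL4, the largest fall, and that of LOXL1, the largest rise among these 8. Both stretches end where the gene's own first exon in the deposited table begins, and no letters are in capitals because none of the motifs searched was found in them. The LOXL1 stretch lies within the span of the antisense gene LOXL1-AS1 (chromosome 15, 73917468 to 73928248, minus strand). Exons of other genes were not left out. In these stretches 88.1% of the LOXL4 bases and 67.5% of the LOXL1 bases were G or C.
LOXL4, chr10:98268251-98268444, minus strand, 194 bases: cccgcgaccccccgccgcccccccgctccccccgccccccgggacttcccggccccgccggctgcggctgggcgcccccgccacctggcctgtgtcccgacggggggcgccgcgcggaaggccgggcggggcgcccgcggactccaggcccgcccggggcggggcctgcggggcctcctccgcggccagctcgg
LOXL1, chr15:73926212-73926457, plus strand, 246 bases: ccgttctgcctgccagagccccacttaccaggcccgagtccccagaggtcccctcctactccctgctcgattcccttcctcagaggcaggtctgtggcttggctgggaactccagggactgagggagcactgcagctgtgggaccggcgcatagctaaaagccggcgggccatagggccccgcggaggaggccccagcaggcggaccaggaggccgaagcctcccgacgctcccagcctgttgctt
The motifs were pairs of inverted heat shock units, GAANNTTC and TTCNNGAA, 3 such units in alternation, and the hypoxia response core written as ACGTG or GCGTG. They were searched on both strands of the 250 bases before the RefSeq start nearest to the gene's start in the deposited table. RefSeq lists 3 starts for LOX and 2 for LOXL3, and their other starts were not searched. None of the 8 promoters searched held a pair of inverted heat shock units. Of all 35116 RefSeq promoters, 5.78% held GAANNTTC, 6.62% held TTCNNGAA and 0.441% held 3 units in alternation. That no match was found says only that these letters are not in this window.

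LOX (chromosome 5, 122063195 to 122078501, minus strand), the founding lysyl oxidase, fell moderately. It was at 35.1, 40.9 and 44.6 RPKM in the shHSF1 libraries, against 46.9, 59.8 and 56.7 RPKM in the shCTL libraries. The highest shHSF1 library lay just under the lowest shCTL library. The means were 40.2 ± 4.76 RPKM in shHSF1 and 54.5 ± 6.74 RPKM in shCTL (SD, n = 3 each), with a log2 fold change of -0.43 (SE 0.12, limma adjusted p = 0.0268). The call did not hold without shHSF1 replicate 1 (limma adjusted p = 0.0812), shHSF1 replicate 2 (0.0669), shCTL replicate 2 (0.0849) or shCTL replicate 3 (0.0903), nor without the filter on low values (0.142).

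The core ACGTG was present in the promoters of LOX, PLOD2 and P4HA1, and in 18.5% of all RefSeq promoters. The sites are shown because these are the members whose promoters held this core. Of them LOX fell and the other two were not called. Each line gives 25 bases on the gene's strand with the core in capitals, as ACGTG or, where it lies on the other strand, as CACGT. Distances are counted from the core to the RefSeq start.
LOX, chr5:122078430-122078454, minus strand, 185 bases before the start: tccctgtgcaACGTGtctgggggga
LOX, chr5:122078361-122078385, minus strand, 116 bases before the start: gtccgccttgCACGTttccaatcgc
LOX, chr5:122078343-122078367, minus strand, 98 bases before the start: caatcgcattACGTGaacaaatagc
LOX, chr5:122078287-122078311, minus strand, 42 bases before the start: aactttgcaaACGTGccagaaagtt
PLOD2, chr3:146161370-146161394, minus strand, 200 bases before the start: tgagcctccaCACGTagccgcaggc
PLOD2, chr3:146161316-146161340, minus strand, 146 bases before the start: aacagtccagACGTGgggcccagga
P4HA1, chr10:73096938-73096962, minus strand, 86 bases before the start: tgatcgagctCACGTagcgagggct
The LOX stretches at 116 and 98 bases share bases. LOX thus held 4 cores within 185 bases, PLOD2 held 2 and P4HA1 held 1, and GCGTG, found in 32.2% of all promoters, was present in those of PLOD1 and PLOD2. A match describes the letters and is not evidence of a bound site. The RefSeq start used lies 242 bases inside the LOX gene of the deposited table, 311 bases inside PLOD2 and 108 bases inside P4HA1.

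LOXL1 (chromosome 15, 73926458 to 73952141, plus strand), which acts on elastic fibres, was low in both groups and rose. It was at 3.18, 3.54 and 2.79 RPKM in the shHSF1 libraries, against 1.54, 1.53 and 1.10 RPKM in the shCTL libraries. Each shHSF1 library was above each shCTL library. Means were 3.17 ± 0.379 RPKM in shHSF1 and 1.39 ± 0.252 RPKM in shCTL (SD, n = 3 each), a ratio of 2.28 (log2 fold change 0.96, SE 0.14, limma adjusted p = 0.00164). The antisense gene LOXL1-AS1 shares 232 exon bases with it, 9.85% of its exon length, and also rose, to 7.58 ± 0.0979 RPKM in shHSF1, against 4.86 ± 0.249 RPKM in shCTL (log2 fold change 0.59, limma adjusted p = 0.0015). No source used here says whether counting used strand, so reads of the shared bases cannot be told apart.
LOXL3 (chromosome 2, 74532259 to 74553995, minus strand) was the lowest member. It was at 1.39, 1.19 and 1.04 RPKM in the shHSF1 libraries and at 1.1999, 0.837 and 0.933 RPKM in the shCTL libraries, with overlapping groups. The log2 fold change was 0.20, with a 95% interval of -0.12 to 0.52 (limma adjusted p = 0.311). HTRA2, on the other strand, overlaps 21.8% of its exon length and was not called either (13.3 RPKM in shHSF1 and 11.4 RPKM in shCTL, limma adjusted p = 0.138), though it was without shHSF1 replicate 3 (limma adjusted p = 0.0212). DOK1 also overlaps LOXL3, with no shared exon bases, and was at 8.30 RPKM in shHSF1 and 8.78 RPKM in shCTL.

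LOXL2 (chromosome 8, 23296897 to 23404209, minus strand), which is known for cross-linking basement membrane collagen IV, was the highest lysyl oxidase in every library and rose further. It was at 122, 121 and 113 RPKM in the shHSF1 libraries, against 65.4, 72.3 and 61.9 RPKM in the shCTL libraries. The groups did not overlap, and the libraries within each lay close together. Means were 118 ± 5.10 RPKM in shHSF1 and 66.5 ± 5.32 RPKM in shCTL (SD, n = 3 each), a ratio of 1.78 (log2 fold change 0.83, SE 0.08, limma adjusted p = 0.000267). It held percentile 96.3 of the tested genes in shHSF1 and percentile 92.3 in shCTL. The overlapping LOC100507156 was at 0.123 RPKM in shHSF1 and 0.0733 RPKM in shCTL and was under the filter.

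The 5 lysyl oxidases together changed less than their make-up. Their summed level was 164, 169 and 163 RPKM in the shHSF1 libraries, against 134, 165 and 143 RPKM in the shCTL libraries, so the groups overlapped, although the sum was higher in shHSF1 in each of the 3 same-numbered pairs. LOXL2 made 71.6 ± 2.84% of the sum in shHSF1 and 45.2 ± 2.94% in shCTL (SD, n = 3 each). LOX made 24.3 ± 2.92% in shHSF1 and 36.9 ± 2.42% in shCTL. LOXL4 made 1.40 ± 0.260% in shHSF1 and 16.2 ± 1.998% in shCTL. For each of LOXL2, LOX, LOXL4 and LOXL1 the shares of the groups did not overlap, while those of LOXL3 did. LOXL1 and LOXL3 each made at most 2.10% in any library. These are shares of length-scaled RNA within a library and carry no test. By reads instead of RPKM the LOXL2 share was 65.0% in shHSF1 and 39.1% in shCTL.

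**Figure D2:**
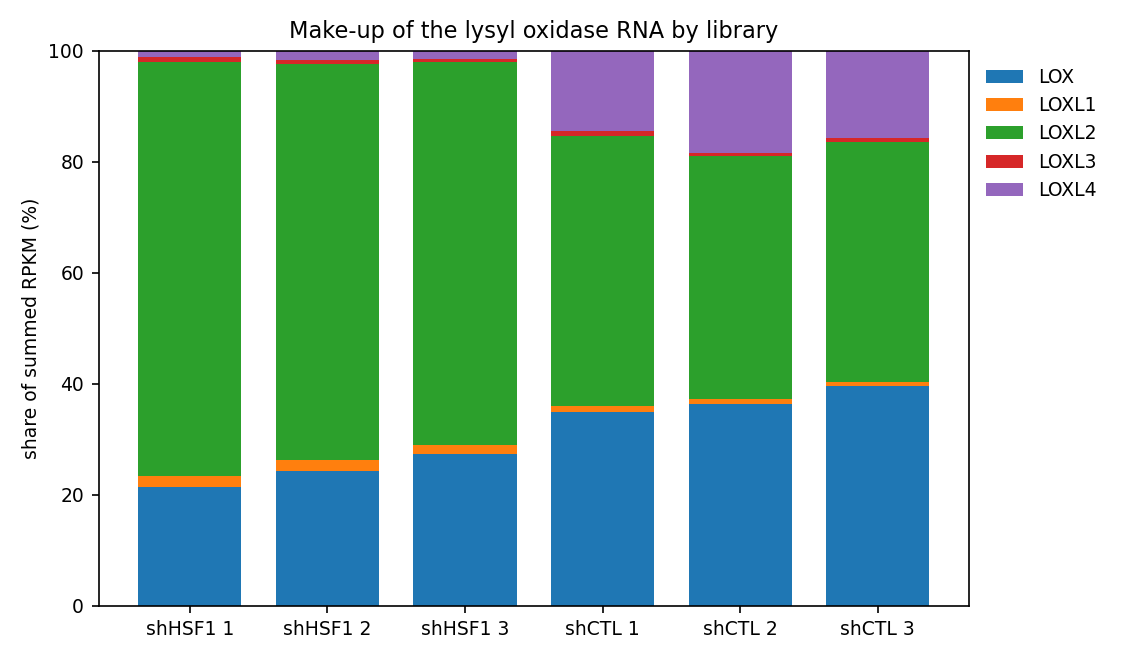
Share of each lysyl oxidase in the summed RPKM of the 5 genes (percent, stacked bars from 0 to 100), 1 bar per library with shHSF1 on the left. The LOXL2 part makes 69.0 to 74.6% in shHSF1 and 43.2 to 48.6% in shCTL, and the LOXL4 part is under 1.7% in shHSF1 and 14.5 to 18.4% in shCTL.

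PLOD1 (chromosome 1, 11934667 to 11975542, plus strand), the lysyl hydroxylase that modifies helical lysines, was slightly raised. Its level was 22.2, 21.4 and 19.6 RPKM in the shHSF1 libraries, against 16.0, 18.0 and 15.1 RPKM in the shCTL libraries. The groups did not overlap but lay less than 2 RPKM apart at their nearest. Means were 21.1 ± 1.33 RPKM in shHSF1 and 16.4 ± 1.495 RPKM in shCTL (SD, n = 3 each; log2 fold change 0.36, SE 0.09, limma adjusted p = 0.0191). The call did not hold without shHSF1 replicate 1 (limma adjusted p = 0.0663), shHSF1 replicate 2 (0.0702) or shCTL replicate 3 (0.0847), nor without the filter on low values (0.0696).
PLOD2 (chromosome 3, 146069441 to 146161495, minus strand), the hydroxylase of telopeptide lysines, was among the most abundant members in both groups. It was at 67.7, 69.9 and 85.2 RPKM in the shHSF1 libraries and at 69.4, 74.1 and 76.8 RPKM in the shCTL libraries. The groups overlapped, and shHSF1 replicate 3 held the highest value. The log2 fold change was 0.01 with a 95% interval of -0.22 to 0.24 (limma adjusted p = 0.945). Its sign turned to -0.09 without shHSF1 replicate 3 and to -0.03 without shCTL replicate 1.

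P4HA1 (chromosome 10, 73007222 to 73096974, minus strand), the major catalytic subunit of prolyl 4-hydroxylase, was not called. It was at 35.9, 38.3 and 42.7 RPKM in the shHSF1 libraries and at 39.1, 43.7 and 39.98 RPKM in the shCTL libraries, and the groups overlapped. The log2 fold change was -0.07 with a 95% interval of -0.27 to 0.13 (limma adjusted p = 0.568).
P4HA2 (chromosome 5, 132192611 to 132227863, minus strand), the alternative catalytic subunit, rose. It was at 9.75, 9.63 and 9.28 RPKM in the shHSF1 libraries, against 5.49, 7.68 and 5.55 RPKM in the shCTL libraries. The shHSF1 libraries lay close together above all shCTL libraries, of which replicate 2 was the nearest. Means were 9.55 ± 0.245 RPKM in shHSF1 and 6.24 ± 1.24 RPKM in shCTL (SD, n = 3 each; log2 fold change 0.59, SE 0.13, limma adjusted p = 0.0109). Without the filter on low values the call did not hold (limma adjusted p = 0.0708). P4HA2 made 19.8 ± 1.78% of the summed RPKM of both subunits in shHSF1 and 13.1 ± 1.55% in shCTL. Its antisense gene P4HA2-AS1, which shares 195 exon bases, and MIR6830 within it were listed at 0.

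The order of levels differed between the groups. In shHSF1 LOXL2 came first, followed by TGM2 and PLOD2, whose ranges overlapped, then LOX and P4HA1, whose ranges also overlapped, PLOD1, P4HA2, LOXL1 and LOXL4, whose ranges almost touched, and LOXL3. In shCTL PLOD2 and LOXL2 came first with overlapping ranges, followed by LOX, P4HA1, LOXL4 and PLOD1, then TGM2 and P4HA2 with overlapping ranges, and last LOXL1 and LOXL3, which also overlapped. Spread between libraries was widest for LOXL4, with a coefficient of variation of 20.2% in shHSF1 and 23.2% in shCTL.

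Neighbouring genes moved with LOXL1, and less so with P4HA2 and PLOD1. The 40 tested genes nearest to LOXL1 had a median log2 fold change of 0.61, and 35 of them were called higher and 1 lower. Over all tested genes 17.7% were called higher and 16.1% lower. With the shHSF1 values centred on each gene's neighbours, the LOXL1 change was 0.35 and no longer called (limma adjusted p = 0.104), and that of LOXL1-AS1 was -0.02. The neighbours of P4HA2 had a median of 0.21, with 14 called higher and none lower, and those of PLOD1 a median of 0.17, with 11 higher and none lower. Centring ended both calls (limma adjusted p = 0.0697 for P4HA2 and 0.179 for PLOD1). The neighbours of TGM2, LOXL4 and LOXL2 had medians of 0.09, 0.0047 and 0.04. Of each 40, 8 were called higher and 4 lower at TGM2, 5 and 4 at LOXL4, and 8 and 6 at LOXL2. After centring these members changed by 3.56, -3.13 and 0.79, each still called. LOX, with a neighbour median of 0.11, was also still called (-0.54, limma adjusted p = 0.0132). The 40 genes reached 1.72 Mb from LOXL1, 3.16 Mb from P4HA2 and 3.55 Mb from PLOD1. They reached 2.60 Mb from TGM2, 2.29 Mb from LOXL4, 4.00 Mb from LOXL2 and 9.12 Mb from LOX, so the windows were not equally local. The part of the chromosome regions in the members' changes was not tested beyond this centring.

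**Figure D3:**
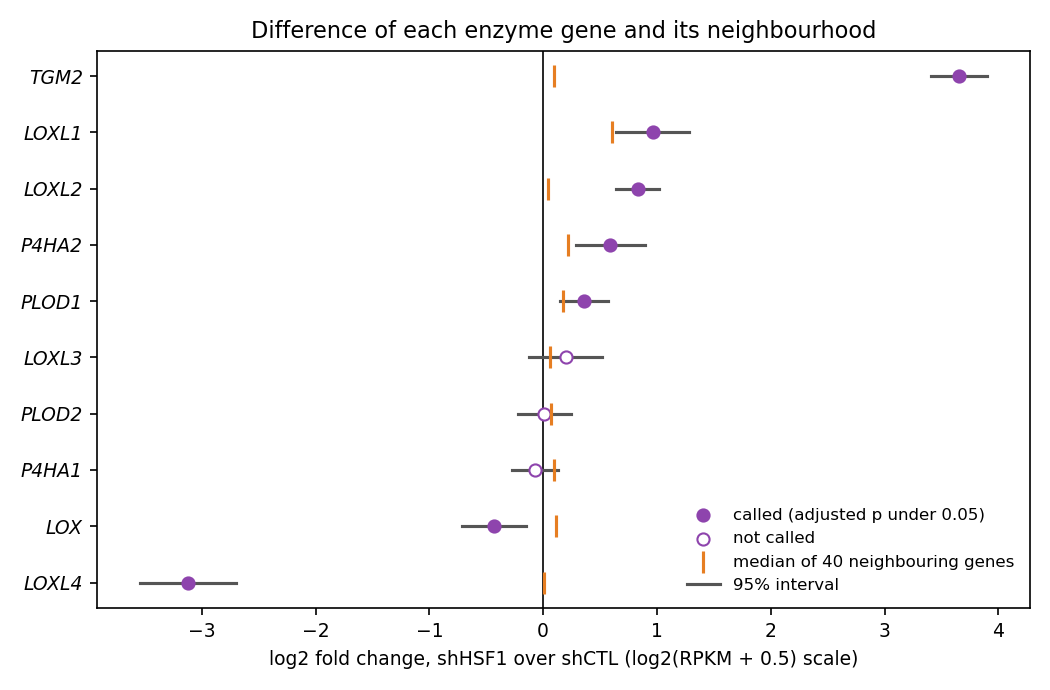
Log2 fold change of each member, shHSF1 over shCTL, as a point with its 95% interval from limma, filled where called, beside the median of its 40 nearest tested genes (orange tick). TGM2 at 3.66 and LOXL4 at -3.12 lie far from their neighbour medians, and the tick of LOXL1 is at 0.61.

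**Figure D4:**
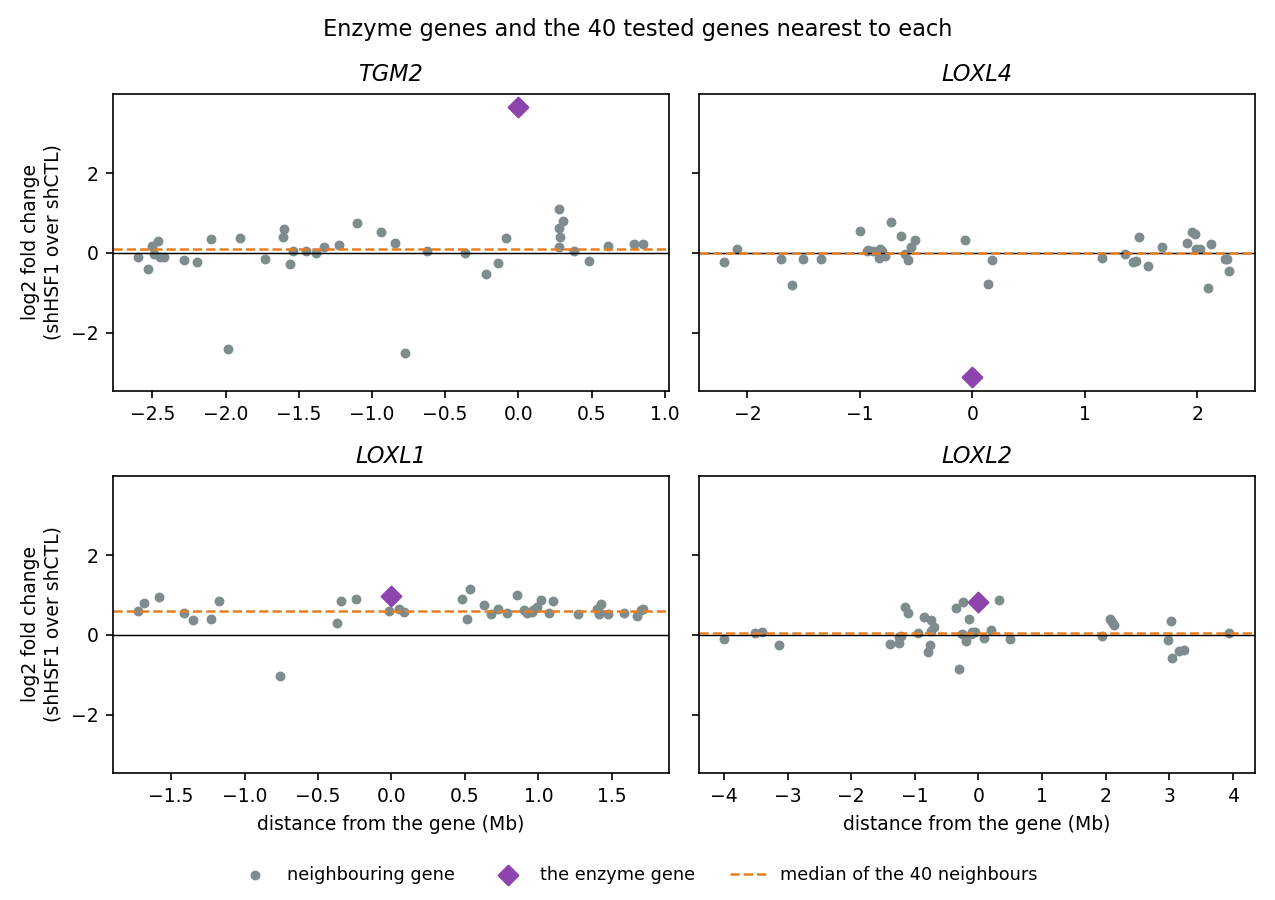
Log2 fold change of TGM2, LOXL4, LOXL1 and LOXL2 (diamonds) and of the 40 tested genes nearest to each (grey points) by distance in Mb, with the neighbours' median dashed. The median of the neighbours is 0.61 at LOXL1 and 0.0047 to 0.09 at TGM2, LOXL4 and LOXL2.

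Of 14 other enzymes and chaperones that act on collagen in the endoplasmic reticulum, 13 were tested. Among them 5 rose, 1 fell and 7 were not called, with a median log2 fold change of 0.25, beside 0.04 over all tested genes. Called higher were 17.7% of all tested genes, and called lower 16.1%. Nothing is read from the counts of this or the following lists. COLGALT1, the main collagen galactosyltransferase, rose to 106 ± 19.6 RPKM in shHSF1, against 56.3 ± 5.80 RPKM in shCTL (SD, n = 3 each, limma adjusted p = 0.00261). PPIB, the cyclophilin of the prolyl 3-hydroxylase complex, rose to 387 RPKM in shHSF1, against 230 RPKM in shCTL, among neighbours with a median of 0.56, and its call was lost on centring (limma adjusted p = 0.114). P3H4, a partner of lysyl hydroxylase complexes, was at 10.9 RPKM in shHSF1 and 6.63 RPKM in shCTL, and the prolyl 3-hydroxylase P3H2 at 26.5 RPKM in shHSF1 and 16.7 RPKM in shCTL, and both rose. P3H3 fell to 0.431 RPKM in shHSF1, against 1.40 RPKM in shCTL. It reached 0.5 RPKM in 1 shHSF1 library and 3 shCTL libraries. P3H3 thus met the filter on low values through shCTL, where it is high, and this only fall is not support for the list. The remaining lysyl hydroxylase PLOD3 (18.2 RPKM in shHSF1 and 15.1 RPKM in shCTL), the shared subunit P4HB (228 RPKM in shHSF1 and 198 RPKM in shCTL) and the collagen chaperone SERPINH1 (57.2 RPKM in shHSF1 and 70.0 RPKM in shCTL) were not called and are mentioned with their values in view. P4HA3 was at 0.0484 RPKM in shHSF1 and 0.0668 RPKM in shCTL, under the filter.

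Of 13 genes for procollagen export and processing, 9 were tested, 2 rose, 2 fell and 5 were not called (median log2 fold change -0.08). BMP1, the procollagen C-proteinase that also activates LOX, rose to 3.78 ± 0.572 RPKM in shHSF1, against 2.13 ± 0.0983 RPKM in shCTL (SD, n = 3 each, limma adjusted p = 0.00418). MIA2, a cargo receptor gene, rose to 7.08 RPKM in shHSF1, against 4.32 RPKM in shCTL. ADAMTS3, a procollagen N-proteinase, fell to 0.299 RPKM in shHSF1, against 0.836 RPKM in shCTL, and SEC24D, a COPII coat subunit, fell to 23.0 RPKM in shHSF1, against 33.0 RPKM in shCTL. ADAMTS3 passed the filter on low values only through shCTL, where it is high, so its count among the falls is not support for the list. The neighbours of ADAMTS3 had a median of -0.41 and those of SEC24D -0.43, and centring ended both calls (limma adjusted p = 0.0725 for ADAMTS3 and 0.778 for SEC24D). The SEC24D call was also lost without shHSF1 replicate 1 or 3 or shCTL replicate 2 or 3 (limma adjusted p from 0.0539 to 0.101).
Of 9 other transglutaminase-family genes only F13A1 (0.841 RPKM in shHSF1 and 0.614 RPKM in shCTL) and TGM1 (0.639 RPKM in shHSF1 and 0.556 RPKM in shCTL) were high enough to be tested, and neither was called (limma adjusted p = 0.115 for F13A1 and 0.762 for TGM1). TGM2 was thus the one transglutaminase above 1 RPKM on average in either group.

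Among the substrates of lysyl oxidases, 5 of 12 fibrillar collagen and elastin genes were tested, of which 3 rose and 1 fell (median log2 fold change 0.62). COL5A1 rose to 13.96 ± 3.08 RPKM in shHSF1, against 6.36 ± 1.03 RPKM in shCTL (SD, n = 3 each, limma adjusted p = 0.00288), COL27A1 to 3.71 RPKM in shHSF1, against 2.10 RPKM in shCTL, and COL1A1 to 2.62 RPKM in shHSF1, against 1.54 RPKM in shCTL. The COL1A1 call was lost without shHSF1 replicate 1 or 2 or shCTL replicate 1 or 3 (limma adjusted p from 0.0509 to 0.0698). COL11A1 fell to 0.269 RPKM in shHSF1, against 1.55 RPKM in shCTL. It was the only fall of the list and passed the filter on low values only through shCTL, where it is high. COL3A1, COL1A2 and ELN, the elastin gene, were each under 0.03 RPKM in both groups.
Of 10 matrix and receptor genes whose proteins bind lysyl oxidases or transglutaminase 2, 8 were tested, 4 rose, 2 fell and 2 were not called (median log2 fold change 0.39). ITGB1, the beta-1 integrin that transglutaminase 2 binds, rose to 522 ± 61.3 RPKM in shHSF1, against 340.1 ± 22.6 RPKM in shCTL (SD, n = 3 each, limma adjusted p = 0.00359). THBS1, thrombospondin-1, rose to 113 RPKM in shHSF1, against 73.5 RPKM in shCTL, and SDC4, a syndecan, to 70.8 RPKM in shHSF1, against 50.2 RPKM in shCTL. FBN1, the fibrillin-1 gene, was called at 11.9 RPKM in shHSF1 and 8.80 RPKM in shCTL, but not without shHSF1 replicate 1 or 2 or shCTL replicate 1 or 3 (limma adjusted p from 0.0589 to 0.133), nor on centring (0.158). Of the fibulins that bring lysyl oxidases to elastic fibres, FBLN5 fell to 0.775 RPKM in shHSF1, against 3.05 RPKM in shCTL, and EFEMP2 to 0.510 RPKM in shHSF1, against 1.52 RPKM in shCTL. EFEMP2 reached 0.5 RPKM in 2 shHSF1 libraries and 3 shCTL libraries, so it met the filter on low values through shCTL, where it is high.

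Of 7 genes for copper supply and ascorbate uptake, the cofactors of these enzymes, 6 were tested, 1 rose, 3 fell and 2 were not called (median log2 fold change -0.18). ATOX1, the copper chaperone that serves the secretory pathway, fell to 39.4 ± 6.06 RPKM in shHSF1, against 67.6 ± 4.55 RPKM in shCTL (SD, n = 3 each, limma adjusted p = 0.00211). SLC31A1, the copper importer, fell to 19.999 RPKM in shHSF1, against 26.5 RPKM in shCTL, and ATP7B to 0.433 RPKM in shHSF1, against 1.05 RPKM in shCTL. SLC31A2 rose to 7.22 RPKM in shHSF1, against 5.32 RPKM in shCTL. The last 3 calls were weak. That of SLC31A1 was lost when any library but shCTL replicate 1 was left out (limma adjusted p up to 0.0691), that of SLC31A2 when any but shHSF1 replicate 3 was (up to 0.135), and that of ATP7B without shHSF1 replicate 2 or 3 or shCTL replicate 3 (up to 0.0727). ATP7B reached 0.5 RPKM in 1 shHSF1 library and 3 shCTL libraries, so it met the filter on low values through shCTL, where it is high. ATP7A, the pump that loads copper onto secreted lysyl oxidases, was picked for mention with its values in view. It was at 4.61 RPKM in shHSF1 and 3.79 RPKM in shCTL and was not called (limma adjusted p = 0.24).

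Of 20 hypoxia-induced genes, all tested, 4 rose, 8 fell and 8 were not called (median log2 fold change -0.15). Over all tested genes 17.7% were called higher and 16.1% lower, and nothing is read from these counts. ADM rose to 111 RPKM in shHSF1, against 63.0 RPKM in shCTL, VEGFA to 42.8 RPKM in shHSF1, against 24.6 RPKM in shCTL, and the oxidase ERO1A to 83.5 RPKM in shHSF1, against 51.9 RPKM in shCTL. CA9, carbonic anhydrase 9, rose to 0.656 RPKM in shHSF1, against 0.0953 RPKM in shCTL, or 0.0442 RPKM without shCTL replicate 2. It passed the filter on low values only through shHSF1, where it is high, so its count among the rises is not support for the list. MXI1 fell to 4.92 ± 0.372 RPKM in shHSF1, against 13.5 ± 2.49 RPKM in shCTL (SD, n = 3 each, limma adjusted p = 0.000333), NDRG1 to 46.1 RPKM in shHSF1, against 106 RPKM in shCTL, INSIG2 to 12.1 RPKM in shHSF1, against 22.9 RPKM in shCTL, and ANKRD37 to 2.75 RPKM in shHSF1, against 4.83 RPKM in shCTL. Without shHSF1 replicate 1 or 2 the VEGFA and ADM calls were lost (limma adjusted p from 0.057 to 0.0879), and that of ADM also without shCTL replicate 2 (0.064) or 3 (0.0848). Centring ended the calls of ADM (0.0515) and ANKRD37 (0.0706).
Of 9 genes for HIF factors, HIF hydroxylases and VHL, 8 were tested. Among these 3 rose, 1 fell and 4 were not called (median log2 fold change 0.09). HIF1A was at 132 RPKM in shHSF1 and 129 RPKM in shCTL (limma adjusted p = 0.845), and is named with these values in view. EGLN3, a HIF prolyl hydroxylase, rose to 3.75 RPKM in shHSF1, against 2.29 RPKM in shCTL, EPAS1 to 16.1 RPKM in shHSF1, against 10.8 RPKM in shCTL, and VHL to 20.4 RPKM in shHSF1, against 15.8 RPKM in shCTL. HIF1AN, the asparaginyl hydroxylase of HIF, fell to 10.5 RPKM in shHSF1, against 14.5 RPKM in shCTL. Without shHSF1 replicate 2 the calls of EPAS1 (limma adjusted p = 0.0634) and VHL (0.0584) were lost, and centring ended that of VHL (0.0516).

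Without the filter on low values, which tests all 28058 genes, the calls of SEC24D, COL27A1, COL1A1, COL11A1, FBN1, SLC31A1, SLC31A2, ATP7B, EPAS1, ADM, VEGFA, ERO1A and NDRG1 were lost (limma adjusted p from 0.0532 to 0.196). Centring also ended that of SLC31A2 (0.114), and a fit with no mean-variance trend that of FBN1 (0.0516).

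**Figure D5:**
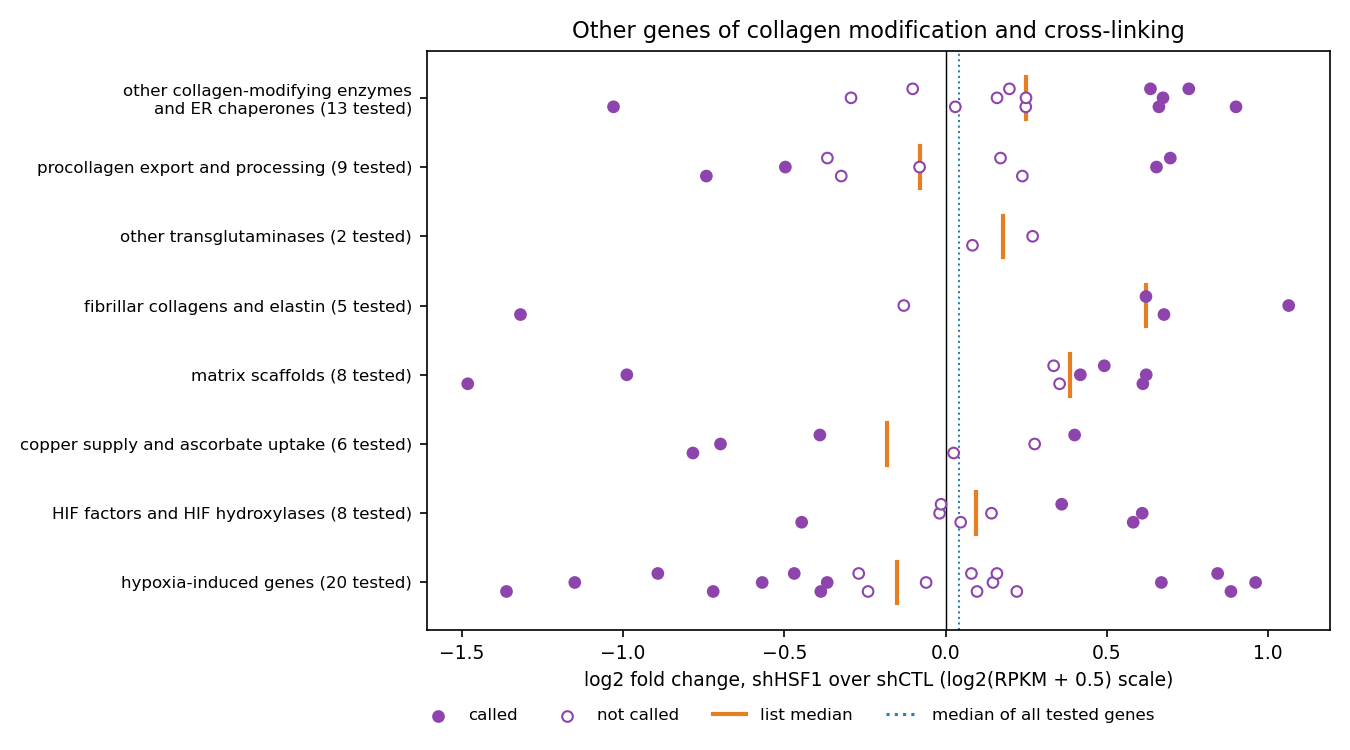
Log2 fold change, shHSF1 over shCTL, of each tested gene in 8 lists around collagen modification and cross-linking, with filled points called and open points not called. Orange bars mark list medians, from -0.18 for copper supply and ascorbate uptake to 0.62 for fibrillar collagens and elastin, and the dotted line the median of all tested genes at 0.04.

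The genes with the most similar profiles were sought for the largest rise and the largest fall, as the smallest root mean square distance of log2(RPKM + 0.5), less its shCTL mean, over 6 libraries. The distance is a description and carries no test. It depends on the pseudocount of 0.5, since most of these genes were near 0 in 1 group and differed far more in RPKM than TGM2 or LOXL4. For TGM2 they included CD40, a receptor of the TNF family (distance 0.14), and the chemokine CXCL1 (0.26). CD40 was at 9.11 RPKM in shHSF1 and 0.172 RPKM in shCTL and CXCL1 at 20.9 RPKM in shHSF1 and 0.908 RPKM in shCTL. The ratio of means was 53.0 for CD40 and 23.0 for CXCL1, against 13.4 for TGM2. Over the alternatives the log2 fold change of CD40 ran from 3.10 to 5.77 and that of CXCL1 from 3.53 to 4.66, against 3.56 to 3.76 for TGM2. For LOXL4 they were TENM1 (0.17), ZNF518B (0.18) and MXRA8 (0.19). TENM1 was at 0.218 RPKM in shHSF1 and 6.01 RPKM in shCTL. ZNF518B had 5 reads in the shHSF1 group and 4159 in the shCTL group, and MXRA8 had 5 in shHSF1 and 1855 in shCTL. The shCTL mean was 27.6 times the shHSF1 mean for TENM1, 617 times for ZNF518B and 313 times for MXRA8, against 10.5 times for LOXL4. Over the alternatives the log2 fold change of TENM1 ran from -5.00 to -2.52, that of ZNF518B from -9.55 to -2.36 and that of MXRA8 from -8.17 to -2.32, against -3.37 to -2.91 for LOXL4. TENM1, ZNF518B and MXRA8 passed the filter on low values only through shCTL, and CD40 only through shHSF1. The levels of ZNF518B and MXRA8 in shHSF1 depended on single libraries, at 0.00169 RPKM for ZNF518B without replicate 3, 0.0102 RPKM without replicate 2, and 0.0083 RPKM for MXRA8 without replicate 1.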

How the data were processed

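RNA of 3 shHSF1 and 3 shCTL libraries of MDA-MB-231 cells was compared. The authors deposited RPKM values for 28058 genes. Per the submitters' processing notes STAR, featureCounts and the build hg38 were used; no source used here gives their versions, the annotation release or the strand setting. Columns headed shScr were taken as shCTL, matched by replicate number. In both groups the headers bear further tags, TGL and cl, with the replicate number right after cl. Each header ends in an S number, and these run in order of replicate number, with shScr before shHSF1 within each. No source used here explains the tags or the S numbers. Whether the tags describe the cell line or the kind of replicate, and whether the S numbers mark an order of handling, is therefore unknown.

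Multiplied by length in kb, the deposited RPKM values summed to 1000000 per column, and 100% of the values came out as whole reads within a tolerance of 0.01, which gave the read totals. The 12433 genes that reached 0.5 RPKM in 3 or more libraries were tested together with limma 3.58.1 in R 4.3.3 on log2(RPKM + 0.5), model on group, mean-variance trend, two-sided, Benjamini-Hochberg adjustment, threshold 0.05. The steps were tested on simulated data. No set test was run on the lists. Some values of named genes and markers are not reported here.

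The members, the lists and the rules were chosen with earlier results of these data known. Named genes are HSF1, the members, genes overlapping them, the 3 nearest profiles for the largest rise and fall, and from each list up to 4 called genes per direction, or the 2 highest where none was called. Neighbour medians use the 40 tested genes nearest on the chromosome. Deviations from group means of same-numbered libraries correlated at 0.468, 0.307 and 0.451, so replicate numbers may pair libraries. No label states what a number marks. The main fit, which gave the reported calls, left this pairing out. It entered only as an alternative, where the limma adjusted p of LOX was 0.0015 instead of 0.0268. Alternatives were the pairing as a block, leaving out each library, other filters, pseudocounts of 0.1 and 1, median scaling, quantile normalization, no trend, voom on recovered reads, and centring on neighbours. Promoters came from RefSeq (GRCh38.p14). Coordinates of genes are those of the table on hg38. Plots used Python 3.11.15 with matplotlib 3.10.9.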

Additional observations from a re-analysis of the deposited data

How the results depend on the processing

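Over 16 alternatives, 142 of 160 member values kept their direction and their side of the threshold, among them all those of TGM2, LOXL4 and LOXL2. With the replicate number as a block, 3257 genes were higher and 2750 lower over the table, 5 members were higher and 2 lower, and no member's call changed. Without the filter on low values 3 members were higher and 1 was lower (1671 and 1527 over all genes), and with centring on neighbours 2 were higher and 2 lower (1575 and 1805). Leaving out 1 library gave 1383 to 2374 genes higher over the table (lowest without shHSF1 replicate 2, and 1404 without shCTL replicate 3) and 1 to 2 members lower (1 without shHSF1 replicate 1 or 2 or shCTL replicate 2 or 3). The log2 fold change of PLOD2, 0.01, was -0.0103 with median scaling, -0.0027 with quantile normalization, -0.0541 with centring and -0.0907 to 0.0734 with 1 library left out. That of TGM1 was -0.0223 with centring and -0.0854 to 0.263 with 1 library left out, and that of LOXL1-AS1 was -0.0181 with centring. The cause of these changes was not tested. Without the filter more genes are tested, and the mean-variance trend is also fitted to genes under the filter. The parts of these in the lost calls were not told apart. With 3 libraries a group, an exact permutation test of 1 gene cannot go below 0.1.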
